A study of Mus musculus with 26 samples.

Results

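The colony stimulating factor ligands and receptors were followed in sorted monocytes and macrophages as 7 genes, chosen by name from 50104 genes listed for all 3 cell types. They are the ligand genes Csf1 and Il34, the receptor gene Csf1r, the GM-CSF receptor chains Csf2ra, Csf2rb and Csf2rb2, and the G-CSF receptor gene Csf3r. RNA was sequenced from 26 samples of naïve female mice. Bone marrow monocytes and small peritoneal macrophages (SPMs) had 4 WT and 4 ACKR2-/- samples each, and MHCII negative lung macrophages had 5 WT and 5 ACKR2-/- samples. ACKR2 is an atypical chemokine receptor, and ACKR2-/- mice lack it in all cells from birth. The methods state that WT mice were C57BL/6J mice bought from a supplier and that ACKR2-/- mice were bred in house, so the genotypes were not littermates and colony cannot be told apart from genotype. Each monocyte and each SPM sample held sorted cells of 5 mice, while the number of mice behind a lung sample and the age of these mice are not given in the labels.

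Macrophage colony stimulating factor (M-CSF, encoded by Csf1) and interleukin 34 both bind the receptor tyrosine kinase encoded by Csf1r, which monocytes and macrophages need for survival and differentiation. GM-CSF is read by a ligand binding alpha chain (Csf2ra) and a signalling common beta chain (Csf2rb), which the IL-3 and IL-5 receptors share, and the mouse has a second beta chain (Csf2rb2) that serves IL-3 alone. G-CSF is read by Csf3r, a receptor best known on neutrophils and their precursors and also present on monocytes.

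In the mouse genome build GRCm38, Csf1 lies at chr3:107741048-107760469, Il34 at chr8:110741829-110805924, Csf2ra at chr19:61224402-61228418 and Csf3r at chr4:126024550-126044440. Csf2rb (chr15:78325752-78353847) and Csf2rb2 (chr15:78282507-78305721) are neighbours on opposite strands. Their coding sequences of 2688 and 2634 bases were aligned because reads of near-identical genes can be split between them in counting, and 95.2% of 2628 aligned bases were identical. The following 90 coding bases are shown because they hold the most differences of any ungapped stretch of that length that starts at a codon of Csf2rb, 15 in all. Differences are marked by capitals, and the bases are read 5′ to 3′ along each gene. They are bases 301 to 390 of Csf2rb (chr15:78338890-78338979, plus strand, exon 5) and bases 304 to 393 of Csf2rb2 (chr15:78294352-78294441, minus strand, exon 4).
Csf2rb: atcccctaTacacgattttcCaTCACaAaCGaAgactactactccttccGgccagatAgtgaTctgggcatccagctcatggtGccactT
Csf2rb2: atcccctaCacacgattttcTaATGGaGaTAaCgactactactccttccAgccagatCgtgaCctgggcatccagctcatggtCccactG
Of the distinct windows of 150 bases in the Csf2rb2 transcripts of GENCODE M21, 3.34% also occurred in Csf2rb, and of the windows of 50 bases 18.4% did. Most reads of that length could therefore be placed, but the levels of the pair stay uncertain to the extent of the shared part.

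Levels are given as CPM, which are counts scaled by library size after TMM scaling of all 26 libraries together, and as CPM per kilobase of gene length where 2 genes are compared. The libraries held 15450670 to 19218213 counts on genes in monocytes, 12781144 to 35400034 in SPMs and 19950019 to 29770252 in lung macrophages. Ackr2, the deleted gene, had 0 reads in all ACKR2-/- monocytes and SPMs, 0 to 2 reads in WT monocytes and 5 to 9 reads in WT SPMs. In lung macrophages it had 150 to 469 reads in 4 WT libraries, 0 in the library labelled WT replicate 5 and 7 to 50 in the ACKR2-/- libraries (log2 fold change -3.69, SE 1.04, edgeR adjusted p = 0.9999). The count of 0 in the library labelled WT replicate 5 lay nearer to the ACKR2-/- lung range than to the other WT lung libraries. It equalled the count in ACKR2-/- monocytes and SPMs but was below every ACKR2-/- lung library. Its label stays uncertain, and the comparisons used it as labelled. The library labelled WT lung replicate 3 also stood apart, with H2-Ab1, an MHCII gene that the gate should leave low, at 15833 CPM against 211 to 1408 CPM in the other 9 lung libraries. Monocyte markers summed to 7693 to 14111 CPM in monocytes, and macrophage markers to 31503 to 63605 CPM in SPMs and 5044 to 16874 CPM in lung macrophages, with reads for every marker of both lists in these groups. Cell types were counted in separate tables, so cell type cannot be told apart from table. The methods also state that lungs were digested with enzymes, while bone marrow was flushed and the peritoneal cavity was lavaged. Differences of the lung from the other cell types therefore cannot be told apart from tissue digestion. In bulk samples fewer cells of a type and less RNA per cell cannot be told apart.

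No member passed the test between genotypes in any cell type. Calls required that edgeR's quasi-likelihood test gave an adjusted p under 0.05 and that the log2 fold change was over 0.5 in size. That rule called 1.27% of all tested genes in monocytes, 0.0462% in SPMs and 0.0% in lung macrophages, against 0 of 6, 0 of 6 and 0 of 7 members. Il34 was the member that was not tested in monocytes and SPMs, where it had no read. In lung macrophages 499 of 16824 tested genes had an unadjusted p under 0.05 in edgeR's test, and none of the 7 members was among them. In monocytes 2251 of 13246 did, among them Csf2rb (edgeR unadjusted p = 0.040) and Csf3r (0.027). In SPMs 709 of 12997 did, and no member was among them. DESeq2 also called 0 members in each cell type. T cell markers moved with genotype in monocytes, where all 10 had reads, 9 of 10 were called higher and the sums were 3.04 to 4.31 CPM in WT and 54.2 to 98.3 CPM in ACKR2-/- samples, and their part in the members' levels was not tested. The differences in genotype effect between cell types, tested in a fit of all 26 samples, called 0.253% of genes for SPMs against monocytes, 0.0393% for lung macrophages against SPMs and 0.152% for lung macrophages against monocytes, and no member was among them.

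**Figure D1:**
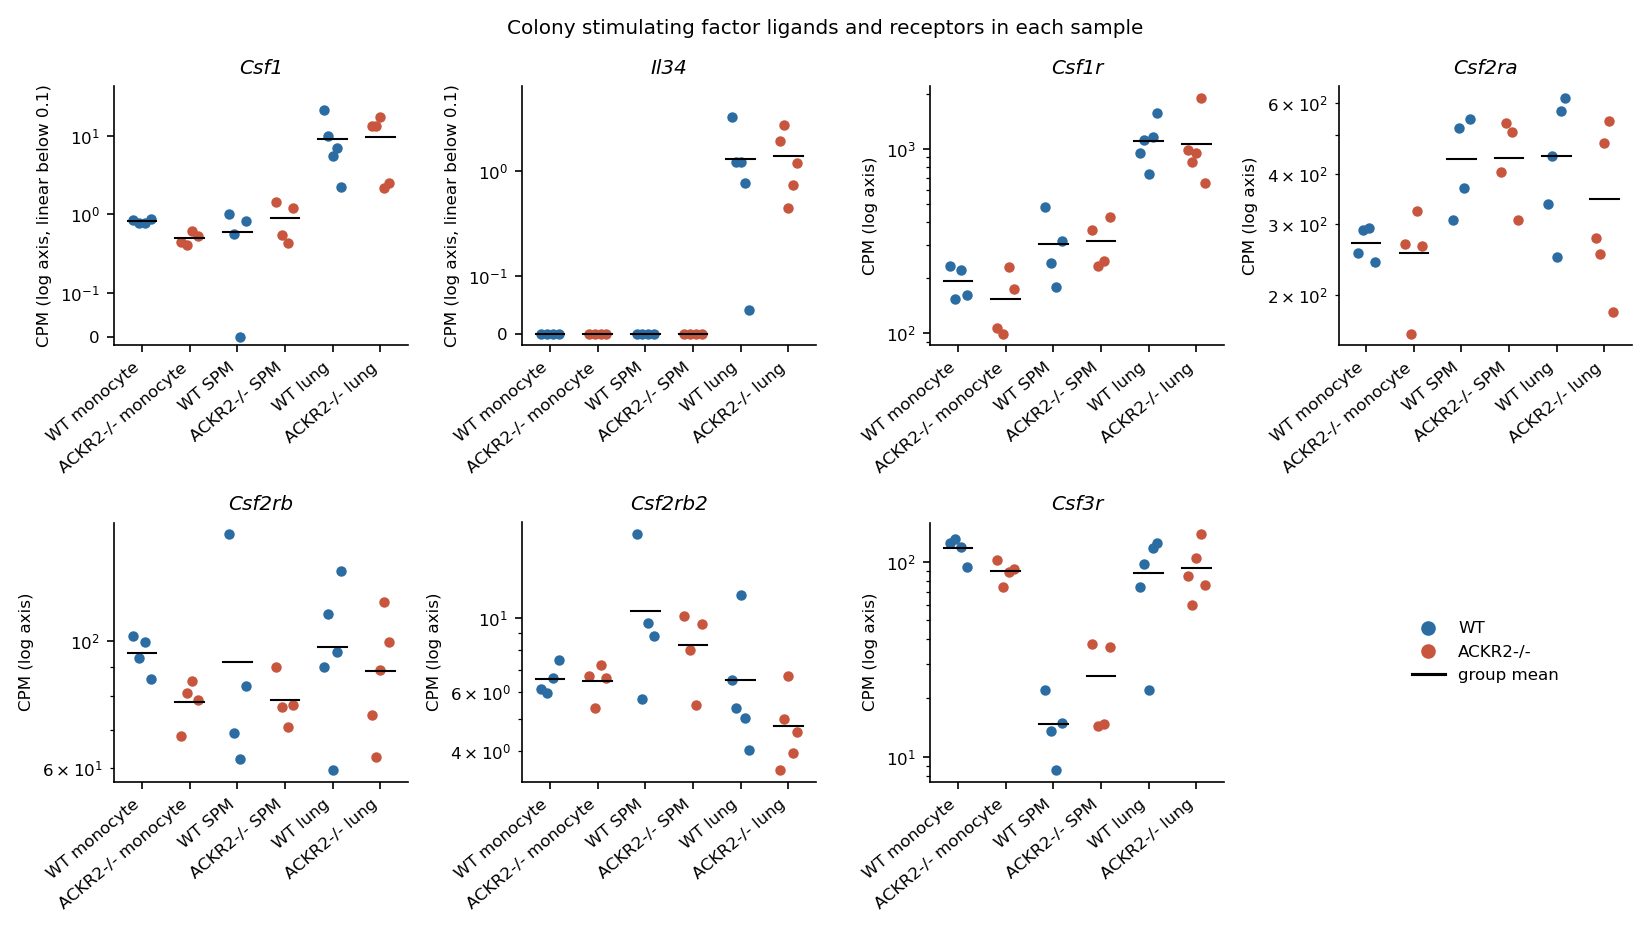
CPM of each of the 7 genes (y axes, logarithmic; linear below 0.1 for Csf1 and Il34) in the 6 groups of samples, with 1 point per sample and a black line at the group mean. Csf1, Il34 and Csf1r were highest in lung macrophages, Csf3r was lowest in SPMs, and Csf2rb stayed between 59.5 and 153 CPM in every sample.

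Between WT cell types the receptors followed separate patterns. In WT SPMs against WT monocytes 1 of 7 members was called, Csf3r, which was lower, where 41.9% of all genes were called and 20.1% called lower. In WT lung macrophages 4 of 7 members were called higher than in SPMs (Csf1, Il34, Csf1r and Csf3r) and 4 of 7 higher than in monocytes (Csf1, Il34, Csf1r and Csf2ra). The rule called 62.3% of all genes between lung macrophages and SPMs and 63.8% between lung macrophages and monocytes, with 39.1% and 39.5% called higher in the lung. Every WT lung value was above every WT SPM value for Csf1, Csf1r and Csf3r, as for 26.7% of all genes, and above every WT monocyte value for Csf1 and Csf1r, as for 30.3% of all genes. Without the libraries labelled WT lung replicates 3 and 5, a choice made after seeing the data, the same 4 members were called in each lung comparison, with log2 fold changes over SPMs of 4.29 for Csf1, 1.84 for Csf1r and 2.70 for Csf3r, and over monocytes of 3.94 for Csf1, 2.49 for Csf1r and 0.74 for Csf2ra. Csf2rb2 was then also called, lower in the lung than in SPMs.

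Per length, the order of the members in WT monocytes was Csf2ra at 146 ± 14.0, Csf1r at 39.3 ± 8.12, Csf3r at 32.5 ± 4.42, Csf2rb at 13.1 ± 1.01, Csf2rb2 at 1.38 ± 0.142 and Csf1 at 0.156 ± 0.00974 CPM per kilobase (SD, n = 4), and of these neighbours only Csf1r and Csf3r lay within each other's spread. In WT SPMs Csf3r came after Csf2rb, at 4.09 ± 1.53 against 12.6 ± 5.74 CPM per kilobase. In WT lung macrophages (n = 5) Csf1, Csf2rb2 and Il34 were the 3 lowest, at 1.74 ± 1.40, 1.38 ± 0.639 and 0.667 ± 0.612 CPM per kilobase, and did not differ beyond their spread. Csf2ra and Csf1r thus headed the order in each WT cell type, and Csf1 and Il34 ended it in monocytes and SPMs.

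Csf1 was close to its floor outside the lung. WT monocytes had 0.850, 0.784, 0.781 and 0.886 CPM, which were 16 to 20 reads per library, and ACKR2-/- monocytes had 0.444, 0.404, 0.615 and 0.527 CPM, which were 9 to 15 reads. Every ACKR2-/- monocyte library was lower than every WT library. The log2 fold change was -0.70 (SE 0.32) and it did not pass edgeR's test over all genes (adjusted p = 0.295). An exact two-sided permutation test of this single gene gave p = 0.029, the smallest that 4 against 4 samples allow, and 6.26% of the 12811 tested genes that all 3 tables list were lower without overlap in the same way. Csf2rb was the other of the 6 tested members with this pattern. SPMs had 0 to 1.45 CPM of Csf1, 0.595 ± 0.437 in WT and 0.903 ± 0.496 in ACKR2-/- (SD, n = 4), with overlapping values.

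In lung macrophages Csf1 was higher and uneven. The WT libraries had 21.5, 9.81, 5.55, 6.91 and 2.22 CPM, and the ACKR2-/- libraries had 13.3, 13.2, 17.3, 2.14 and 2.53 CPM. The library labelled WT replicate 5 and ACKR2-/- replicates 4 and 5 were the 3 low libraries, and the genotypes overlapped (log2 fold change 0.10, SE 0.66, edgeR adjusted p = 0.9999). Against WT SPMs, WT lung macrophages had 14.2 times as much Csf1 (edgeR adjusted p = 4.9e-05), and against WT monocytes 11.1 times as much (adjusted p = 7.9e-05). Every lung library was above every monocyte and SPM library. Among the WT libraries alone, 26.7% of all genes were likewise higher than in SPMs without overlap, and 30.3% higher than in monocytes.

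Fibroblasts, which make Csf1 in many tissues, had markers in the lung libraries, although the stated gate took CD45+, CD11b+ and F4/80+ cells and would remove fibroblasts and epithelial cells. The 6 fibroblast markers all had reads, led by Col3a1 and Dcn, and summed to 66.1 to 730 CPM in WT and 46.8 to 640 CPM in ACKR2-/- lung macrophages, against at most 7.14 CPM in any monocyte or SPM library. The 3 libraries with the least Csf1 were also the 3 with the lowest fibroblast sums, 66.1, 46.8 and 145 CPM, while the other 7 had 297 to 730 CPM. Epithelial markers, led by Sftpc and Scgb1a1, were likewise lowest in these 3 libraries, at 335, 209 and 4415 CPM against 4688 to 15583 CPM. The library labelled WT replicate 5 and ACKR2-/- replicate 4 were also lowest of their genotype for monocyte (174 and 134 CPM) and T cell markers (94.1 and 75.6 CPM). The same held for dendritic cell (71.1 and 28.5 CPM) and mast cell and basophil markers (4.48 and 2.81 CPM). ACKR2-/- replicate 5 had 747, 355, 141 and 16.2 CPM for these lists. For B cell markers the library labelled WT replicate 5 was not the lowest. The part of any of these cells in the Csf1 level was not tested.

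**Figure D2:**
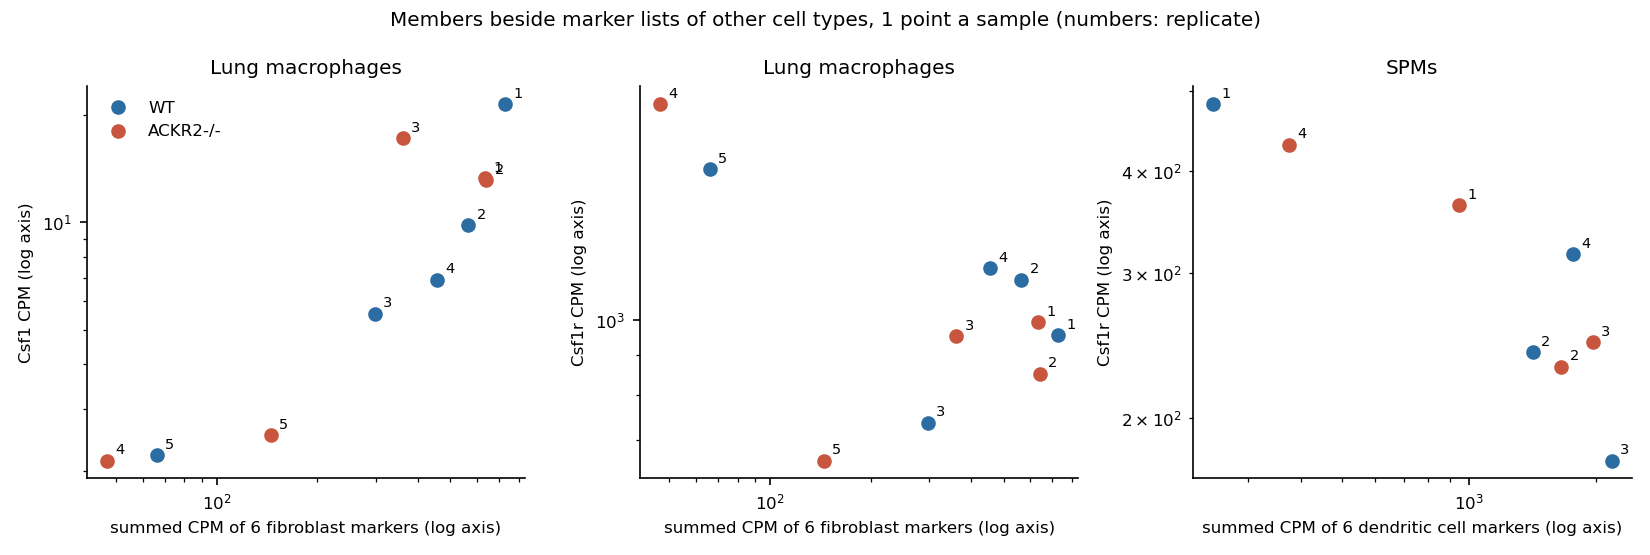
Member level (y axis, CPM, logarithmic) against the summed CPM of 6 markers of another cell type (x axis, logarithmic), 1 point per sample numbered by replicate, WT in blue and ACKR2-/- in red. In lung macrophages Csf1 is low and Csf1r high in the library labelled WT replicate 5 and in ACKR2-/- replicate 4, while ACKR2-/- replicate 5 is low in both. In SPMs Csf1r is highest in the 3 libraries with the lowest dendritic cell marker sums.

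Il34, the other ligand of Csf1r, had 0 reads in all 16 monocyte and SPM libraries, where the 3 reads that a count of 0 allows correspond to 0.121 to 0.150 CPM in monocytes and 0.142 to 0.466 CPM in SPMs. Its WT lung values were 3.27, 1.22, 1.23, 0.774 and 0.0404 CPM and its ACKR2-/- lung values were 1.94, 2.75, 0.441, 0.737 and 1.19 CPM, from 1 to 96 reads. The library labelled WT replicate 5, with 1 read, was the lowest and lay below that limit. Set against a floor of 3 reads over the whole group, WT lung macrophages had at least 19.1-fold more than WT SPMs and at least 36.6-fold more than WT monocytes (edgeR adjusted p = 0.0013 and 4.2e-04). WT lung replicate 1 held 84 of the 183 WT lung reads, and without it these bounds were 12.6-fold and 24.1-fold. Within the lung the genotypes did not separate (log2 fold change 0.11, SE 0.78, edgeR adjusted p = 0.9999).

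Csf1r (chr18:61105572-61132149), the receptor of these 2 ligands, shares 873 of its 5774 exon bases with Hmgxb3 on the opposite strand, and counting by strand is not stated, so reads of these bases are uncertain. WT monocytes had 231, 154, 222 and 162 CPM and ACKR2-/- monocytes had 108, 99.6, 229 and 175 CPM. ACKR2-/- replicates 1 and 2 were the low libraries, and the other 2 lay within the WT range (log2 fold change -0.31, SE 0.26, edgeR adjusted p = 0.559). The macrophage markers, led by Cd68 and Apoe, were also lowest in ACKR2-/- replicates 1 and 2, with sums of 342 and 508 CPM against 673 to 1257 CPM in the other 6 monocyte libraries. Their part in the Csf1r level was not tested.

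WT SPMs had 482, 240, 178 and 316 CPM of Csf1r and ACKR2-/- SPMs had 364, 231, 247 and 430 CPM. The ranges lay over each other (log2 fold change -0.02, SE 0.34, edgeR adjusted p = 0.991). WT replicate 1 and ACKR2-/- replicates 1 and 4 were the 3 highest libraries of either genotype. The same 3 libraries had the lowest sums of 6 dendritic cell markers, 247, 948 and 374 CPM against 1416 to 2175 CPM in the other 5, and Cd209a made up most of these sums. They were also lowest for T cell markers (408 to 486 CPM against 689 to 874 CPM), B cell markers (469 to 1153 CPM against 1211 to 1658 CPM) and mast cell and basophil markers (216 to 961 CPM against 1134 to 2599 CPM). In WT SPMs the T cell list was mostly Cd2 (mean 487 CPM, next Cd3g at 56.0 CPM). The mast cell and basophil list was mostly Cpa3 (mean 1230 CPM, next Fcer1a at 64.6 CPM). WT replicate 1 also had the highest monocyte marker sum, 8244 CPM against 2538 to 3579 CPM in the other SPM libraries, and the part of these lists in the result was not tested.

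Csf1r was highest in lung macrophages, with 956, 1126, 736, 1166 and 1563 CPM in WT and 991, 851.5, 952, 1897 and 658 CPM in ACKR2-/- libraries. All 10 values exceeded every monocyte and SPM value, where among WT libraries alone 26.7% of all genes lay wholly above SPMs and 30.3% wholly above monocytes. WT lung macrophages had 3.65 times the level of WT SPMs (log2 fold change 1.87, SE 0.34, edgeR adjusted p = 3.4e-05) and 5.77 times that of WT monocytes (log2 fold change 2.53, SE 0.35, adjusted p = 7.4e-07). The difference of WT SPMs from WT monocytes, 304 ± 132 against 192 ± 39.7 CPM (SD, n = 4), did not pass the test (log2 fold change 0.66, SE 0.34, edgeR adjusted p = 0.120). With 1 library left out it was 0.34 to 0.84 and was not called (edgeR adjusted p = 0.060 to 0.453). With RLE scaling it was 0.82 and was called (edgeR adjusted p = 0.041), where the median of all genes was also higher in SPMs, by 0.16 against 0.00 with TMM. Between genotypes in the lung the log2 fold change was -0.08 (SE 0.27, edgeR adjusted p = 0.9999), and ACKR2-/- replicate 4 and the library labelled WT replicate 5, the 2 highest, were those with the lowest fibroblast sums. ACKR2-/- replicate 5, with the next lowest fibroblast sum, had the lowest Csf1r of the lung libraries, 658 CPM. The part of fibroblasts in the Csf1r level was not tested.

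Csf2ra, the alpha chain that gives the GM-CSF receptor its ligand specificity, had the highest level per length of all members in every group of monocytes and SPMs. It was at 146 ± 14.0 CPM per kilobase in WT monocytes and 236 ± 63.0 in WT SPMs (SD, n = 4), and at 241 ± 84.2 in WT lung macrophages (n = 5), where Csf1r was at 227 ± 62.4 CPM per kilobase and did not differ beyond the spread. These levels used the gene lengths of the count tables, 1849 bases for Csf2ra and 4885 for Csf1r, while the exons of GENCODE M21 cover 2871 and 5774 bases. In CPM, WT monocytes had 254, 291, 293 and 241, WT SPMs had 308, 521, 369 and 547, and WT lung macrophages had 337, 444, 249, 574 and 620. Every WT SPM value was above every WT monocyte value, as for 19.4% of all genes tested, and the difference did not pass the test (log2 fold change 0.69, SE 0.31, edgeR adjusted p = 0.079). It was called with RLE scaling (log2 fold change 0.87, edgeR adjusted p = 0.022), in the fit of the 13 WT samples alone (0.69, adjusted p = 0.0498) and without WT SPM replicate 1 (0.82, adjusted p = 0.044).

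The lung level of Csf2ra was called above that of WT monocytes (log2 fold change 0.72, SE 0.30, edgeR adjusted p = 0.038) although 1 lung library, WT replicate 3, lay within the monocyte range. The call was lost without any of the 4 WT monocyte libraries or without the lung libraries labelled WT replicate 2, 4 or 5, with adjusted p up to 0.107. The lung count table may rest on another gene model of Csf2ra than the other tables. ACKR2-/- libraries had 268, 160, 324 and 266 CPM in monocytes, 405, 538, 508 and 308 CPM in SPMs and 277, 253, 478, 541 and 182 CPM in the lung. The genotypes overlapped in each cell type, and the largest log2 fold change was -0.38 (SE 0.33, edgeR adjusted p = 0.9999) in the lung.

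**Figure D3:**
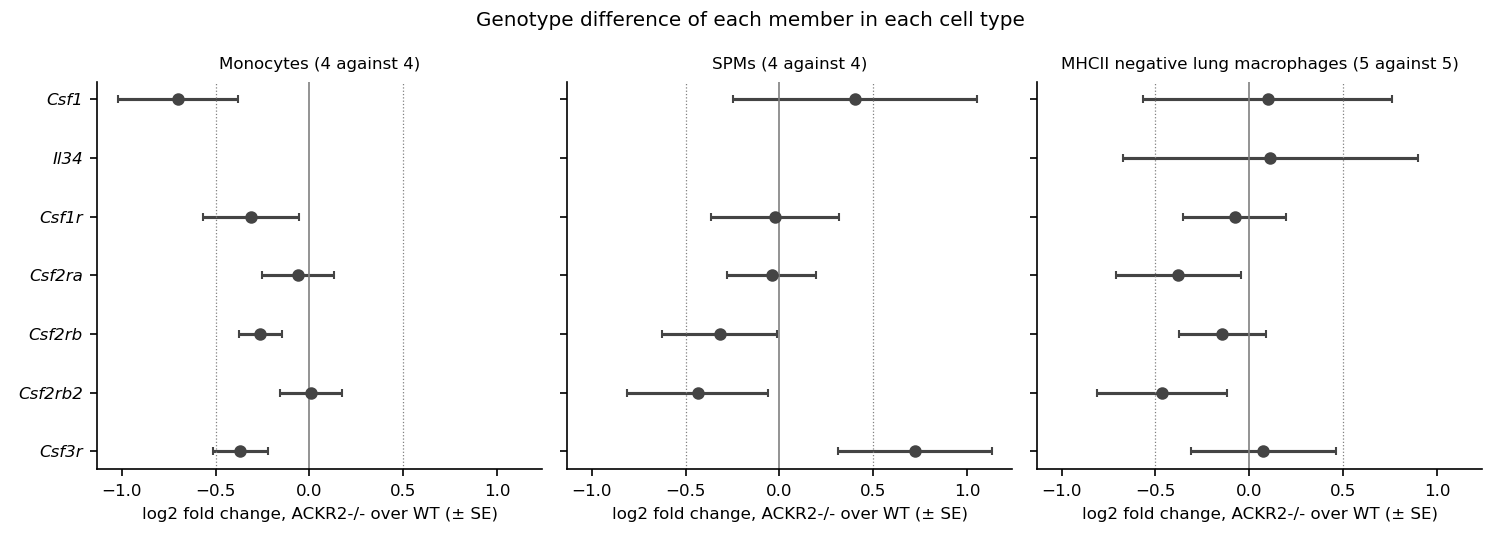
Log2 fold change of ACKR2-/- over WT (x axis) with its standard error for each tested member (y axis) in each cell type, from edgeR, with dotted lines at -0.5 and 0.5. No member was called, and the estimates beyond the dotted lines were Csf1 in monocytes (-0.70) and Csf3r in SPMs (0.72).

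Csf2rb, the common beta chain through which GM-CSF, IL-3 and IL-5 signal, had similar group means in the 3 WT cell types, with a wide spread in SPMs. The group means were 95.1 ± 7.35 CPM in WT monocytes, 92.0 ± 41.8 in WT SPMs (SD, n = 4) and 97.7 ± 27.1 in WT lung macrophages (n = 5). The log2 differences were -0.05 (SE 0.24) for SPMs against monocytes, 0.09 (SE 0.23) for lung macrophages against SPMs and 0.04 (SE 0.23) for lung macrophages against monocytes, and the direction of the first 2 flipped with RLE scaling. None was called, with edgeR adjusted p of 0.940, 0.765 and 0.893. With 1 library left out the first ranged from -0.41 to 0.090 and the second from -0.054 to 0.45. WT SPM replicate 1 was the highest WT SPM library, so the likeness of the means depended on single libraries.

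In monocytes Csf2rb had 102, 93.2, 99.6 and 85.6 CPM in WT and 68.1, 81.0, 85.3 and 78.7 CPM in ACKR2-/- libraries. The groups did not overlap, with 85.6 and 85.3 CPM as the nearest pair. The log2 fold change was -0.26 (SE 0.11), the edgeR adjusted p was 0.271, and the exact permutation p of this gene alone was 0.029. In SPMs the WT values were 153, 69.1, 62.3 and 83.4 CPM and the ACKR2-/- values 90.02, 76.7, 70.9 and 77.2 CPM. WT replicate 1 stood above all others, and the rest overlapped (log2 fold change -0.32, SE 0.30, edgeR adjusted p = 0.814).

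Csf2rb2, the beta chain of the IL-3 receptor, was lower than Csf2rb in every sample, between 3.51 and 17.8 CPM in all 26 samples. It had 6.15, 5.98, 6.60 and 7.49 CPM in WT monocytes, 17.8, 5.74, 9.64 and 8.86 CPM in WT SPMs, and 6.54, 5.38, 11.7, 5.01 and 4.04 CPM in WT lung macrophages. SPM replicate 1 and the library labelled WT lung replicate 3 were the 2 high libraries. Lung macrophages against SPMs stood at the threshold (log2 fold change -0.69, SE 0.30, edgeR adjusted p = 0.0502), and it was called without WT lung replicate 3 (-1.01, adjusted p = 0.0039) or WT SPM replicate 2 (-0.88). Between genotypes the log2 fold changes were 0.01 (SE 0.16) in monocytes, -0.44 (SE 0.38) in SPMs and -0.46 (SE 0.34) in lung macrophages, with edgeR adjusted p of 0.986, 0.799 and 0.9999.

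The share of Csf2rb2 in the reads of the beta chain pair needs no scaling of libraries. It was 6.49% ± 1.06 in WT and 7.68% ± 1.12 in ACKR2-/- monocytes, 10.3% ± 2.38 and 9.46% ± 1.65 in SPMs (SD, n = 4), and 7.16% ± 5.37 and 5.31% ± 1.79 in lung macrophages (n = 5). The genotypes overlapped in each cell type (exact permutation p = 0.229, 0.629 and 0.667). The library labelled WT lung replicate 3 had 16.4%, against 2.96% to 7.36% in the other 9 lung libraries.

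Csf3r, the G-CSF receptor, was lower in WT SPMs than in the other WT cells. WT monocytes had 125, 130, 119 and 94.2 CPM, WT SPMs had 21.97, 13.6, 8.55 and 14.97 CPM, and WT lung macrophages had 74.0, 97.2, 22.03, 118 and 125 CPM. Every WT SPM value was below every WT monocyte value, as for 21.6% of all genes, and WT lung replicate 3 lay just above the highest WT SPM value while the other 4 lung libraries lay far above it. WT SPMs had 0.127 times the level of WT monocytes (log2 fold change -2.98, SE 0.42, edgeR adjusted p = 2.1e-06), and WT lung macrophages had 5.87 times that of WT SPMs (log2 fold change 2.55, SE 0.40, adjusted p = 5.0e-06). Lung macrophages and monocytes did not differ beyond their spread (log2 fold change -0.42, SE 0.36, adjusted p = 0.311).

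Neutrophil markers were abundant in the sorted monocytes, where Csf3r was high, although the stated gate was Ly6G- and would remove mature neutrophils. The 10 markers, led by Ngp and Elane, which are granule genes of neutrophil precursors, all had reads and summed to 22704 to 54858 CPM in WT and 10987 to 36287 CPM in ACKR2-/- monocytes. In SPMs they summed to 41.8 to 353 CPM and in lung macrophages to 2.18 to 39.7 CPM, although Csf3r was at 22.03 to 138 CPM in the lung. Library by library the monocytes were mixed. WT replicate 2 had the highest neutrophil sum and the highest Csf3r of the monocytes, while ACKR2-/- replicate 2 had the next highest sum and the lowest Csf3r. The part of neutrophil precursors in the monocyte level of Csf3r was not tested.

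Between genotypes, ACKR2-/- monocytes had 102, 74.6, 89.0 and 91.5 CPM of Csf3r, of which 3 lay below all WT values (log2 fold change -0.37, SE 0.15, edgeR adjusted p = 0.230, exact permutation p = 0.057). ACKR2-/- SPMs had 38.0, 14.3, 14.8 and 36.5 CPM. Replicates 1 and 4 were above all WT SPMs, and the others were within the WT range (log2 fold change 0.72, SE 0.41, edgeR adjusted p = 0.788). Replicates 1 and 4 also had the highest neutrophil marker sums of the SPMs, 353 and 299 CPM against 41.8 to 127 CPM, mostly from Prtn3, while Mpo had no read in any ACKR2-/- SPM library. Large peritoneal macrophage markers were likewise highest in these replicates, at 3659 and 4303 CPM against 947 to 2951 CPM in the other SPM libraries. The part of either list in the Csf3r level was not tested. ACKR2-/- lung macrophages had 84.7, 59.7, 105.1, 138 and 76.0 CPM and overlapped with WT (log2 fold change 0.08, SE 0.39, edgeR adjusted p = 0.9999). The genotype effect on Csf3r was higher in SPMs than in monocytes by 1.19 on the log2 scale (SE 0.55), which did not pass the adjustment (edgeR unadjusted p = 0.039, adjusted p = 0.649).

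The ratio of Csf3r to Csf1r reads per kilobase within a library also needs no scaling. In monocytes it was near parity, 0.734, 1.14, 0.728 and 0.788 in WT and 1.28, 1.01, 0.525 and 0.708 in ACKR2-/- libraries. In SPMs it was 0.0617, 0.0766, 0.0651 and 0.0640 in WT and 0.141, 0.0840, 0.0810 and 0.115 in ACKR2-/- libraries. All 4 ACKR2-/- SPM libraries lay above all 4 WT libraries, by 0.62 on the log2 scale (exact permutation p = 0.029, the smallest that 4 against 4 samples allow, and 0.171 after Benjamini-Hochberg adjustment over the 6 genotype tests of this ratio and of the beta chain share). In monocytes the log2 difference was 0.00 (exact permutation p = 1.0) and in lung macrophages 0.36 (p = 0.413). With any 1 SPM library left out the difference was 0.47 to 0.74 on the log2 scale, with an exact permutation p = 0.057 each time, the smallest that 3 against 4 samples allow.

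**Figure D4:**
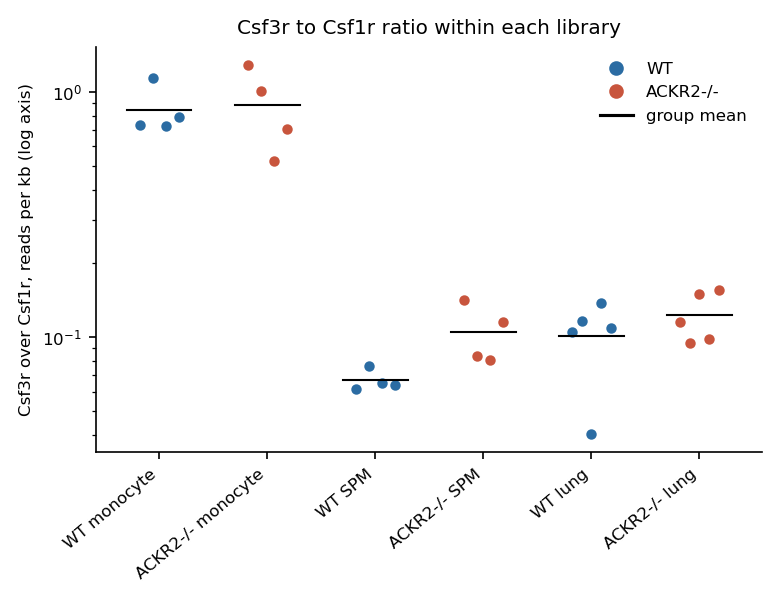
Ratio of Csf3r to Csf1r in reads per kilobase (y axis, logarithmic) in each library of the 6 groups, with black lines at group means. Monocytes lie between 0.525 and 1.28, and the ACKR2-/- SPMs (0.0810 to 0.141) lie above the WT SPMs (0.0617 to 0.0766).

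Of the other ligands and receptors of the family, a list of 8 genes, 5 were called higher in WT lung macrophages than in WT monocytes and 0 lower, where 39.5% of all genes were called higher. In WT lung macrophages against WT SPMs 3 were called higher and 1 lower, where 62.3% of all genes were called, and in WT SPMs against WT monocytes 2 were called higher and 0 lower, where 41.9% were. Csf2, which encodes GM-CSF, had no read in WT monocytes, 0.120 CPM on average in WT SPMs and 7.40, 7.31, 4.04, 5.42 and 0.444 CPM in WT lung macrophages, at least 146-fold more than in monocytes over the group floor (edgeR adjusted p = 5.6e-06). In ACKR2-/- lung macrophages it was 7.85, 9.82, 8.81, 0.268 and 5.90 CPM. The library labelled WT replicate 5 and ACKR2-/- replicate 4 were again the low libraries. Il5, a cytokine made mainly by lymphocytes, was at least 29.8-fold above monocytes (18.8-fold without WT lung replicate 2), with values of 0 to 2.45 CPM in WT and 0.0335 to 26.9 CPM in ACKR2-/- lung libraries. Sdc1, a proteoglycan that has been described to bind IL-34, was at 62.1 CPM in WT SPMs and 0.345 CPM in WT monocytes (log2 fold change 7.49, SE 0.91, edgeR adjusted p = 2.6e-07). Il3 had no read in any sample, and Il5ra, the alpha chain of the IL-5 receptor, was called higher in SPMs than in monocytes (log2 fold change 5.80, SE 1.26, edgeR adjusted p = 5.1e-04). Mast cell and basophil markers, all 6 with reads and led by Cpa3 in SPMs, summed to 216 to 2599 CPM in SPMs and 4.96 to 30.0 CPM in monocytes. B cell markers summed to 469 to 1658 CPM in SPMs and 508 to 795 CPM in monocytes. Il5ra was at 2.88 ± 0.395 CPM in WT SPMs (SD, n = 4), where the mast cell and basophil sums spanned 216 to 2599 CPM. The part of these cells in the receptor levels was not tested.

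Of 22 signal transducers downstream of these receptors, 3 were called higher and 6 lower in WT SPMs than in WT monocytes, where 41.9% of all genes were called. Their median log2 fold change was -0.41 against 0.00 over all genes. Tyrobp, an adaptor of Csf1r signalling, rose 5.56-fold in SPMs (edgeR adjusted p = 5.4e-08), while the adaptor Shc1 was at 0.255 times its monocyte level. Between WT lung macrophages and SPMs 13 transducers were called higher and 1 lower, where 62.3% of all genes were called and 39.1% called higher. The median was 0.91 against 0.41 over all genes. The Src family kinase gene Fgr was 3.98 times as high in the lung, and Tyrobp was the 1 lower gene, at 0.144 times (adjusted p = 9.0e-10). Against monocytes 8 were called higher in the lung and 1 lower, where 63.8% of all genes were called and 39.5% called higher. The median was 0.22 against 0.34 over all genes, so the transducers did not stand out from all genes there.

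Of 13 negative regulators, 4 were called higher and 3 lower in SPMs than in monocytes, where 41.9% of all genes were called, and 10 higher and 3 lower in lung macrophages than in SPMs, where 62.3% of all genes were called and 39.1% called higher. Socs3 and Cish, feedback inhibitors of cytokine receptor signalling, had the largest fold changes of the list in both lung comparisons. Socs3 was at 444 CPM in WT lung macrophages, 4.42 CPM in WT SPMs and 1.68 CPM in WT monocytes, and Cish at 52.3, 1.03 and 0.557 CPM. The adaptor Dok2 was at 745 CPM in WT SPMs, 35.4 times its monocyte level (adjusted p = 3.3e-08). Of 10 transcription factors known to act on the receptor genes, 1 was called higher in SPMs than in monocytes, Mitf (log2 fold change 1.75), and 3 lower, among them Irf8 and Cebpe (-4.46 and -3.81). In lung macrophages against SPMs 5 were called higher, among them Ets2 and Irf8 (4.52 and 3.72), and 2 lower, Cebpe and Mitf (-5.06 and -2.57). The shares of all genes called were 41.9% and 62.3% in these comparisons, as above. All adjusted p in these lists came from edgeR's fit of the 26 samples.

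**Figure D5:**
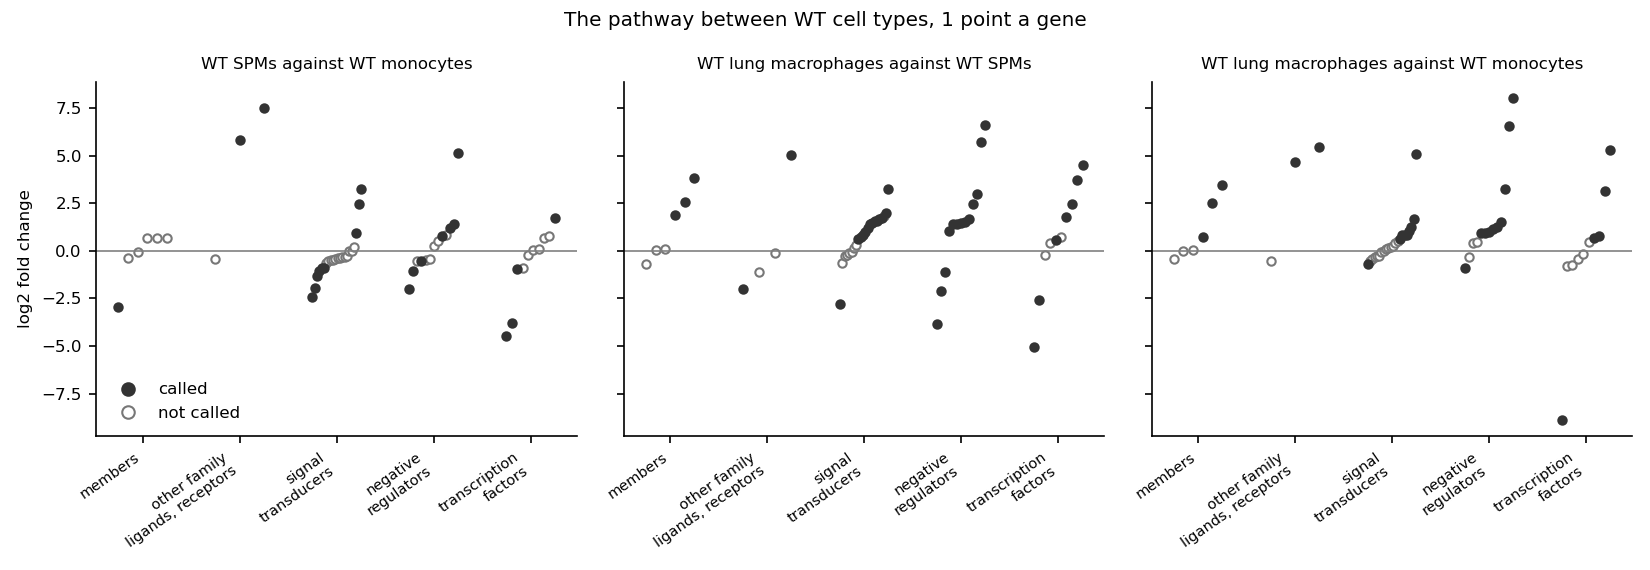
Log2 fold change (y axis) of each tested gene of 5 lists (x axis) in the 3 comparisons of WT cell types, filled where called and open where not. Genes without a read in a compared group are left out. The members span -2.98 to 0.69 in SPMs against monocytes, where Sdc1 stands at 7.49, and Socs3 stands at 6.63 and 8.04 in the lung comparisons.

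Between genotypes 1 signal transducer and 1 transcription factor of these lists were called, both in monocytes, where 1.27% of all tested genes were called, and 0 in SPMs or lung macrophages. Shc1 was at 74.4 ± 7.53 CPM in WT and 49.0 ± 4.32 CPM in ACKR2-/- monocytes (log2 fold change -0.58, SE 0.12, edgeR adjusted p = 0.038). Fli1 was at 54.5 ± 6.03 and 34.0 ± 1.94 CPM (log2 fold change -0.66, SE 0.11, adjusted p = 0.016). Both calls were lost in the fit of all 26 samples (adjusted p = 0.404 and 0.249). Shc1 was no longer called without any of 7 of the 8 monocyte libraries, with adjusted p up to 0.142, the exception being ACKR2-/- replicate 3, and Fli1 was lost without WT replicate 1 or 2 or ACKR2-/- replicate 4.

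Among 17791 other genes, those whose mean log2 CPM over the 6 groups ran closest to a member were found by the root mean square difference after centring. For Csf2rb they were Mlxip, Rnf6 and Nln (0.03, 0.03 and 0.05), for Csf3r Def6, Sephs2 and S1pr4 (0.16, 0.18 and 0.18), for Csf1 Gpr31b, Thsd1 and Traf4 (0.13, 0.20 and 0.20), and for Csf1r Cblc, Zfand5 and Zfp651 (0.14, 0.15 and 0.15). Cblc and Zfp651 had at most 1.07 CPM in any group, so their likeness to Csf1r rested on few reads, while Zfand5 had 75.2 CPM in WT monocytes and 424 CPM in WT lung macrophages. Def6 had 91.7, 14.4 and 61.9 CPM in WT monocytes, SPMs and lung macrophages, where Csf3r had 117, 14.8 and 87.4 CPM.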

How the data were processed

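Raw counts of reads per gene, as the authors deposited them in a table per cell type, were used without change. Per the labels, poly-A RNA was amplified with a SMARTer kit, and the submitters' processing notes name HISAT2 2.0.5, featureCounts 1.5.0-p3, DESeq2 and mm10. The lung table ends in 5 summary lines (56.3% of its counts, left out here) and holds newer gene identifiers, so its counter and annotation may differ. All 26 columns were matched to samples by title.

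Genes were filtered with filterByExpr (minimum count 10, minimum total 15), scaled by TMM and tested with edgeR 4.0.16's quasi-likelihood test in R 4.3.3, with Benjamini-Hochberg adjustment over all tested genes. Genotypes were compared within each cell type, and WT cell types and differences in genotype effect in a fit of all 26 samples. Scripts were tested on simulated data. DESeq2 1.42.0, RLE factors, other filters, a replicate block and leaving out each library were tried. Same-numbered samples' deviations correlated between -0.08 and 0.60, not above 0.1 throughout any cell type, so numbers were not treated as pairs in the main fits. The highest value was that of lung number 1, and this check cannot exclude that some same-numbered samples were handled together. P-values measure the spread between these samples. The named genes were the 7 members, Ackr2, listed pathway genes called between genotypes, at most 2 called genes per list, direction and WT comparison, and the 3 most alike genes, of which some are not reported here. Members and lists were chosen with earlier results of these data known. Reads without molecular identifiers are not independent molecules, so floors of 3 counts cover counting error only.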

Additional observations from a re-analysis of the deposited data

Results flagged for a closer look

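Among 38 groups of 4 or 5 samples with unequal values of a member, 1 held a sample far from the others, where chance alone marks about 1 in 20. Csf1r in ACKR2-/- lung replicate 4, at 1897 CPM, stood above the next of its group by 0.731 of the group's range. The same library had the lowest fibroblast marker sum (46.8 CPM) and epithelial marker sum (209 CPM) of the lung samples. ACKR2-/- lung replicate 5, which was also low in both sums, had the lowest Csf1r of the lung samples. The part of these cells in the flagged value was not tested.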

How the results depend on the processing

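The replicate block, RLE factors, other filters, the fit of all 26 samples and leaving out any 1 library changed the call of no member between genotypes, and 0 members were called in each of these. Of the WT results, the calls of Csf1, Il34, Csf1r and Csf3r in the lung and of Csf3r in SPMs held under every alternative run. In SPMs against monocytes 4 members were called with DESeq2 and with RLE factors and 2 in the fit of the 13 WT samples, and 1 to 2 with a library left out. Csf2rb2 in lung macrophages against SPMs was called with DESeq2 (-0.77), RLE factors (-0.77), the filter at 1 CPM (-0.73) and, chosen after seeing the data, without WT lung replicates 3 and 5 (-0.89), and Csf2ra in lung macrophages against monocytes lost its call with no filter (adjusted p = 0.051) and with the replicate block (0.059), as did Shc1 in monocytes with the block (0.060). The cause of these changes was not tested. Low counts limit Csf1 in monocytes and SPMs and Il34.

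Values below are log2 fold changes of members, near 0 in the report and of opposite sign here. In WT cell types, Csf2rb in SPMs against monocytes was 0.12 with DESeq2 and with RLE factors. In lung macrophages against SPMs, Csf2ra was -0.090 with both and -0.0048 with the filter at 1 CPM, and Csf2rb was -0.021 with DESeq2 and -0.020 with RLE factors. In lung macrophages against monocytes, Csf2rb was -0.068 with the replicate block, and Csf2rb2 was 0.088 with DESeq2, 0.089 with RLE factors, 0.00036 with the filter at 1 CPM, 0.028 in the WT fit and 0.015 with the block. Between genotypes, Csf1r in SPMs was 0.035 with no filter, 0.050 with the block and 0.064 in the fit of all 26 samples, where Csf2ra was 0.012. Csf2rb2 in monocytes was -0.0019 with no filter and -0.017 in the fit of all 26 samples, and Csf1 in the lung was -0.022 with the block. Without WT lung replicates 3 and 5 the lung genotype values were -0.34 for Csf1, 0.0024 for Csf1r, -0.032 for Csf3r and -0.26 for Il34.

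With 1 library left out at a time, the ranges were -0.41 to 0.090 for Csf2rb in SPMs against monocytes, -0.12 to 0.18 for Csf2ra and -0.054 to 0.45 for Csf2rb in lung macrophages against SPMs, and -0.095 to 0.17 for Csf2rb and -0.32 to 0.13 for Csf2rb2 in lung macrophages against monocytes. Between genotypes in the lung they were -0.26 to 0.65 for Csf1, -0.35 to 0.10 for Csf1r, -0.24 to 0.013 for Csf2rb, -0.14 to 0.27 for Csf3r and -0.27 to 0.75 for Il34. In SPMs they were -0.21 to 0.36 for Csf1r, -0.14 to 0.10 for Csf2ra, -0.47 to 0.12 for Csf2rb and -0.66 to 0.027 for Csf2rb2, and in monocytes -0.18 to 0.13 for Csf2ra and -0.031 to 0.11 for Csf2rb2. The genotype difference of the Csf2rb2 share was -1.67 to 0.235 percentage points in SPMs and -2.90 to 0.470 in lung macrophages, and that of the log2 Csf3r to Csf1r ratio -0.20 to 0.22 in monocytes and 0.47 to 0.74 in SPMs.

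Counts of all genes called depended on the tool. DESeq2 called 494 genes between genotypes in monocytes, 33 in SPMs and 20 in lung macrophages, against 168, 6 and 0 with edgeR, and 138, 23 and 109 genes for the 3 differences in genotype effect, against 45, 7 and 27. With no filter the monocyte count was 346, the SPM count 52 and the difference of lung macrophages against monocytes 42, the last being 17 with the replicate block. The fit of all 26 samples called 1 gene in the lung. With 1 library left out the counts were 76 (without WT replicate 1) to 413 (without ACKR2-/- replicate 3) in monocytes, 3 to 8 in SPMs, and 29 to 57, 4 to 7 and 13 to 53 for the differences.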
